A study of Mus musculus with 8 samples.

Results

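The genes described here are 10 genes of the lipid-associated macrophage program, which is named after the receptor TREM2: *Trem2*, *Tyrobp*, *Cd9*, *Spp1*, *Gpnmb*, *Lpl*, *Fabp4*, *Fabp5*, *Plin2*, and *Lgals3*. They were taken by gene symbol from the 54146 genes of the deposited count table, and all 10 were found and passed the filter on low counts, as 17095 genes did. The libraries were bulk RNA-Seq of macrophages from epididymal white adipose tissue (eWAT) of 4 C57Bl6 mice, with 1 FCGR4+ and 1 FCGR4- library from each mouse. All 4 mice had eaten a high fat diet ad libitum for 24 weeks and had then received 30% less food for 2 weeks (caloric restriction), so that obese mice without restriction and lean mice are not part of these comparisons. The cells were flow-sorted for CD45 and CD11b and against markers of T cells, B cells, neutrophils, and eosinophils, and were then divided by surface FCGR4, an activating receptor for IgG. The question addressed is whether the genes of this program differ between the FCGR4+ and the FCGR4- population of the same fat depot.

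TREM2 is a surface receptor that binds lipids and lipoproteins and signals through the adaptor TYROBP (also called DAP12). Macrophages of this program gather around dying adipocytes in obese adipose tissue and around lipid in other tissues, where they take up fat, hydrolyze it in lysosomes, and store it in droplets. The 10 genes cover the receptor and its adaptor, surface and secreted proteins (*Cd9*, *Spp1*, *Gpnmb*, *Lgals3*), and the handling of fatty acids (*Lpl*, *Fabp4*, *Fabp5*, *Plin2*).

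None of the 10 genes passed the threshold between the populations by edgeR, and *Lpl* passed it by DESeq2, the test that the study's methods name. The threshold was an adjusted P under 0.1 in a paired edgeR fit (quasi-likelihood test, mouse as the block), which 1.27% of all tested genes passed (217 of 17095). Of these 217 genes, 203 were lower and 14 higher in FCGR4+ cells. At an unadjusted P under 0.05, 2 of the 10 genes (*Lpl* and *Fabp4*, both higher in FCGR4+ cells) were found, against 9.77% of all genes tested. DESeq2 called 1 of the 10, *Lpl*, against 5.99% of all genes, and leaving out the filter on low counts made edgeR call 3, *Lpl*, *Fabp4*, and *Fabp5*, against 2.77% of 38021 genes. The fitted log2 fold change was above 0 for 7 of the 10 genes, as it was for 8500 of the 17095 genes tested. Its median was 0.18 over the 10 genes and -0.00 over all genes tested. Differences between mice passed the same threshold more often. In the mouse term of the fit, 3 of the 10 (*Gpnmb*, *Lpl*, and *Fabp5*) were called, against 5.55% of all genes tested.

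Total counts per library ranged from 35992794 to 66856746. Levels are given as normalized CPM, that is, counts brought to a common library size with edgeR's TMM factors. The smallest count of any member in any library was 2559, so counting error is small beside the spread between mice, and bulk counts cannot tell fewer cells of a type from less RNA per cell. *Fcgr4*, the gene of the sorted protein, averaged 199.6 ± 42.4 normalized CPM over FCGR4+ and 66.1 ± 18.3 over FCGR4- libraries (SD, n = 4). Its log2 fold change was 1.61 (edgeR adjusted P = 0.0162), higher in 4 of 4 mice. The animal IDs in the labels have 1 prefix for mice 1 and 2 and another for mice 3 and 4, and the labels do not say what it stands for.

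Together the 10 genes held from 1.503% to 3.48% of the normalized counts of a library. Levels of different genes can be set side by side only per length, here as normalized CPM per kilobase of exon. On that scale *Fabp4* lay at the 86.5th percentile of the tested genes and *Trem2* at the 94.9th, and the other 8 lay at or above the 97.95th. In FCGR4+ libraries the order of the means was *Spp1* (2696 ± 1535 per kilobase, SD, n = 4), *Tyrobp* (2666 ± 556), *Lgals3* (1760.0 ± 360.3), *Plin2* (866 ± 179.7), *Gpnmb* (386 ± 346), *Lpl* (346 ± 123), *Fabp5* (222 ± 112), *Cd9* (175 ± 29.8), *Trem2* (94.4 ± 19.3), and *Fabp4* (30.8 ± 7.74). Of these neighbors, only *Lgals3* and *Plin2*, *Cd9* and *Trem2*, and *Trem2* and *Fabp4* had ranges that did not overlap. *Spp1* was above *Tyrobp* in 2 of 4 mice. In FCGR4- libraries the same 5 genes led in the same order, *Cd9* (259.5 ± 91.3 per kilobase) stood between *Gpnmb* and *Lpl*, and the ranges of *Lgals3* and *Plin2* and of *Trem2* and *Fabp4* again did not overlap.

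**Figure D1:**
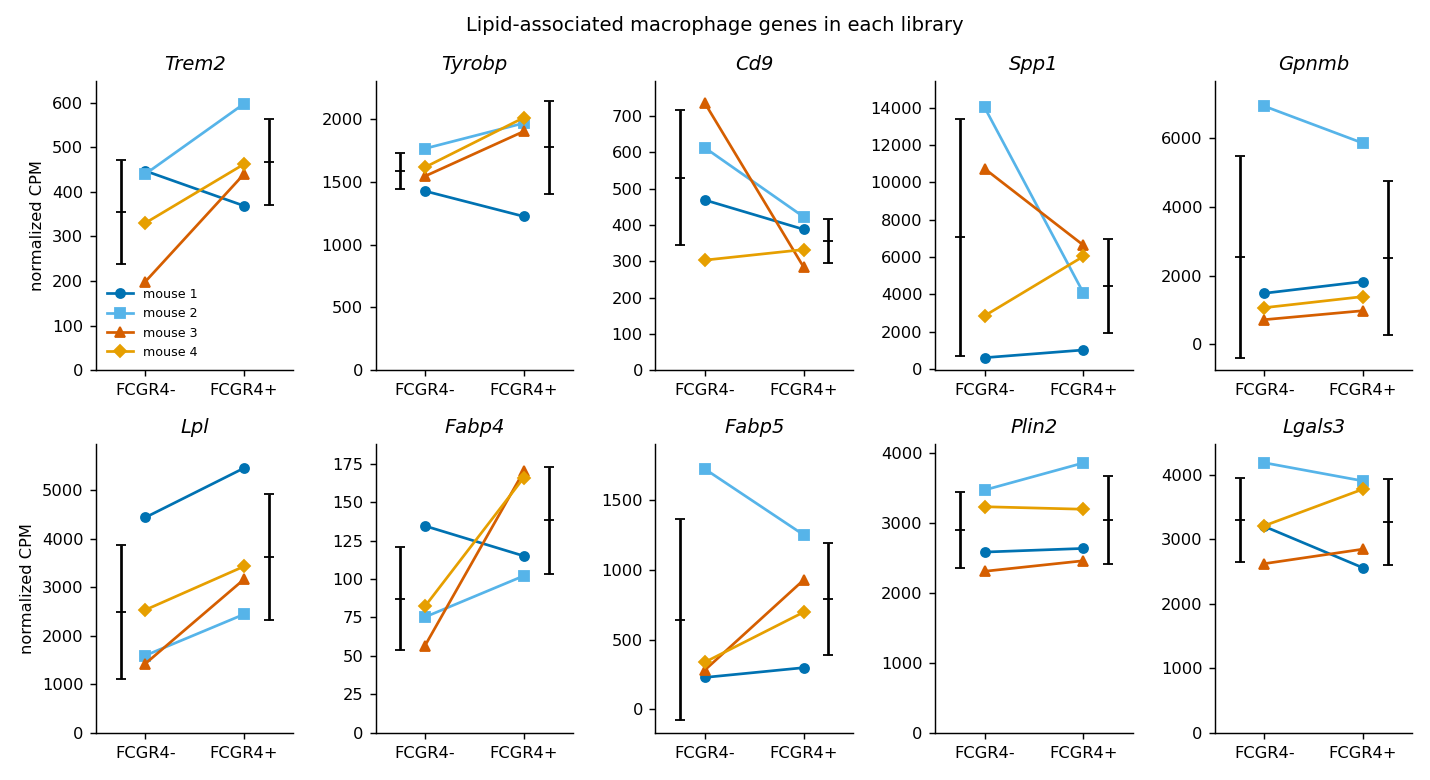
Normalized CPM of each of the 10 genes in the FCGR4- and FCGR4+ library of each mouse, with lines joining the libraries of 1 mouse, and the mean and SD of the 4 mice beside them. Only the lines of *Lpl* rise in 4 of 4 mice, and both *Gpnmb* libraries of mouse 2 lie far above those of the other mice.

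*Trem2* is a gene of chromosome 17 (48346401 to 48354147, plus strand, build mm10, as for all positions given). It was at 368, 597, 439.8, and 462 normalized CPM in the FCGR4+ libraries of mice 1 to 4 and at 447, 439.7, 198, and 329.9 in the FCGR4- libraries, in the same order. The groups overlapped, and the lowest library was the FCGR4- library of mouse 3. The fitted log2 fold change was 0.45 (standard error, SE, 0.226, 95% interval from -0.08 to 0.98, edgeR adjusted P = 0.563), so that both no change and a difference of up to 1.97-fold lie within the interval. *Trem2* was higher in FCGR4+ cells in mice 2, 3, and 4 and lower in mouse 1. Without mouse 3 the log2 fold change was 0.21, and without mouse 1 it was 0.69.

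*Tyrobp*, whose product carries the signal of TREM2 and of several other receptors, lies on the plus strand of chromosome 7 (30413760 to 30417585). It was at 1226, 1969.9, 1904, and 2014 normalized CPM in the FCGR4+ libraries of mice 1 to 4 and at 1428, 1767, 1547, and 1618 in the FCGR4- libraries. FCGR4+ cells were higher in the same 3 mice as for *Trem2*, and mouse 1 had the lowest level in both populations. Its fitted log2 fold change was 0.14 (SE 0.142, 95% interval from -0.19 to 0.47, edgeR adjusted P = 0.744), whose upper end is 1.39-fold higher in FCGR4+ cells. Leaving out 1 mouse gave from 0.072 (without mouse 3) to 0.26 (without mouse 1).

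The sequence upstream of the start of *Trem2* is shown with that of *Plin2*, because these were the 2 members whose upstream sequence held AGGTCA, the half-site bound by nuclear receptors such as PPARγ and LXR. Both are the 250 bases before the start site, 5′ to 3′ on the strand of the gene, from RefSeq on build GRCm38, and the capitals mark the half-site, which reads TGACCT here because it lies on the opposite strand. That of *Trem2* is chr17:48346151-48346400 on the plus strand and that of *Plin2* is chr4:86670060-86670309 on the minus strand.
Trem2: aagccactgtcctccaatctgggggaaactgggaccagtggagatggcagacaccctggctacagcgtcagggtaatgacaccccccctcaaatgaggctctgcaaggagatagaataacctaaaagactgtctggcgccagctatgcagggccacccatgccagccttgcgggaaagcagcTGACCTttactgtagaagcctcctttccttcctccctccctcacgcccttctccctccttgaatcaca
Plin2: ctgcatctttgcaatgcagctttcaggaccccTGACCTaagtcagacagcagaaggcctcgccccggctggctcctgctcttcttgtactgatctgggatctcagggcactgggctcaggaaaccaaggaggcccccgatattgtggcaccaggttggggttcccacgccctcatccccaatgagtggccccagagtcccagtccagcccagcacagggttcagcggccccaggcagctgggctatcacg
The half-site covered positions -68 to -63 before the start of *Trem2* and -218 to -213 before that of *Plin2*. Of 32851 promoters of the same length, 14.02% held AGGTCA on either strand, against 2 of the 6 members that matched the promoter table by symbol (*Trem2*, *Cd9*, *Spp1*, *Gpnmb*, *Plin2*, and *Lgals3*). *Tyrobp*, *Lpl*, *Fabp4*, and *Fabp5* had no entry. Searched in the same way on both strands, CATGTG occurred before *Cd9* (12.25% of all promoters) and TATAAA before *Spp1* (12.37%), and CACGTG (6.021%) and TGACTCA (4.463%) before none of the 6. No matches overlapped. A match describes the letters of the sequence only.

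*Lpl* encodes lipoprotein lipase, which releases fatty acids from triglyceride-rich lipoproteins, and lies on the plus strand of chromosome 8 (68880491 to 68907448). It was at 5462, 2447, 3169, and 3435 normalized CPM in the FCGR4+ libraries of mice 1 to 4 and at 4443, 1596, 1427, and 2537 in the FCGR4- libraries. FCGR4+ cells had the higher level in 4 of 4 mice, which held for 1 of the 10 members and for 8.38% of all genes tested, although the groups overlapped and mouse 1 was the highest in both. Fitted over the 4 mice, the log2 fold change was 0.62 (SE 0.168, 95% interval from 0.23 to 1.02), a 1.54-fold difference. Its unadjusted P was 0.00712 and its adjusted P was 0.233 by edgeR, which did not pass. With DESeq2 the adjusted P was 0.0172, and edgeR without the filter on low counts gave 0.0272. Over the alternatives run, it ranged from 0.0172 to 0.928. The log2 fold change was 0.44 without mouse 3 and 0.73 without mouse 1.

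*Fabp4* and *Fabp5* encode fatty acid binding proteins, which carry fatty acids through the cytosol, and lie on chromosome 3 (10204088 to 10208576, minus strand, and 10012548 to 10016607, plus strand). *Fabp4* was at 115, 102, 170.1, and 166 normalized CPM in the FCGR4+ libraries of mice 1 to 4 and at 134, 75.3, 56.8, and 82.3 in the FCGR4- libraries. The FCGR4+ libraries of mice 3 and 4 were the highest of all 8 and the FCGR4- library of mouse 3 the lowest, while in mouse 1 the FCGR4- library was the higher. Its fitted log2 fold change was 0.70 (SE 0.285, 95% interval from 0.03 to 1.37, edgeR adjusted P = 0.488). With no filter on low counts the adjusted P was 0.0389 by edgeR, and with DESeq2 it was 0.154.

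*Fabp5* was at 299, 1251, 927, and 697 normalized CPM in the FCGR4+ libraries and at 229, 1722, 282, and 338 in the FCGR4- libraries. Mouse 2 was the highest in each population and mouse 1 was low in both. Fitted over the 4 mice, the log2 fold change was 0.67 (SE 0.334, 95% interval from -0.11 to 1.46, edgeR adjusted P = 0.558), with a higher level in FCGR4+ cells in 3 of 4 mice. With no filter on low counts its adjusted P was 0.0776 by edgeR. Without mouse 3 the log2 fold change was 0.40 for *Fabp4* and 0.31 for *Fabp5*. Without mouse 1 it was 1.01 for *Fabp4*, and without mouse 2 it was 1.04 for *Fabp5*.

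The fitted differences of both genes were larger in mice 3 and 4 than in mice 1 and 2, but this contrast did not pass after adjustment. With mice 3 and 4 alone the log2 fold change was 1.27 for *Fabp4* and 1.36 for *Fabp5*, and with mice 1 and 2 alone it was 0.11 and -0.04. The difference between these pairs of mice, tested as an interaction of population and ID prefix, had a log2 size of 1.19 (SE 0.320) for *Fabp4* and 1.42 (SE 0.371) for *Fabp5*. The unadjusted P was 0.0108 and 0.00963, respectively, and these were the 2 members under 0.05, as were 13.8% of all genes tested. The adjusted P was 0.306 and 0.304 by edgeR, and the number of all genes called for this term was 0 by edgeR's quasi-likelihood test, the 1 tool run for it. The values for *Trem2* were 0.79 and 0.08 with mice 3 and 4 and with mice 1 and 2 (adjusted P of the difference 0.406), and those for *Lpl* were 0.77 and 0.46 (adjusted P 0.639). The share of counts on mitochondrial genes moved with the same split. It was 8.31%, 4.35%, 7.87%, and 6.67% in the FCGR4+ and 9.88%, 6.43%, 5.21%, and 4.13% in the FCGR4- libraries of mice 1 to 4, lower in FCGR4+ cells in mice 1 and 2 and higher in mice 3 and 4. Its part in these differences was not tested.

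Some pairs counted on *Fabp5* may come from a copy, since a pair with more than 1 alignment was counted at every one. The copy *Gm6166*, which was chosen after its values were seen, has 51.1% of its sequence in *Fabp5*, in words of 50 bases, and 5.10% of the sequence of *Fabp5* is found in it. Its counts were between 25.2% and 30.2% of those of *Fabp5* in every library, and its log2 fold change was 0.65 (edgeR adjusted P = 0.515). Counting ignored strand and skipped any pair that fell on exons of more than 1 gene. This touches *Spp1*, which has 18.8% of its exon bases on *Gm42793* and 11.6% of its sequence in it, and *Cd9*, which has 10.7% of its exon bases on *Gm26728*. These overlapping genes had at most 62 and 12 counts in any library.

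*Plin2* encodes perilipin 2, which coats lipid droplets, and lies on the minus strand of chromosome 4 (86648386 to 86670060). It was at 2638, 3861, 2462, and 3199 normalized CPM in the FCGR4+ libraries and at 2586, 3473, 2311, and 3235 in the FCGR4- libraries. Mouse 2 was the highest and mouse 3 the lowest in both populations. The fitted difference was 0.06 (SE 0.117, 95% interval from -0.21 to 0.34, edgeR adjusted P = 0.858), which leaves room for a difference of 1.26-fold at most in the direction of FCGR4+ cells.

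*Cd9* encodes a tetraspanin of the cell surface, often used to mark lipid-associated macrophages, and lies on the minus strand of chromosome 6 (125460266 to 125494791). It was at 388, 423, 284, and 332 normalized CPM in the FCGR4+ libraries and at 469, 613, 736, and 303 in the FCGR4- libraries. FCGR4- cells had the higher level in mice 1, 2, and 3. The log2 fold change was -0.51 (SE 0.241, 95% interval from -1.08 to 0.06, edgeR adjusted P = 0.543), the lowest of the 10 genes. Without mouse 3 it was -0.24. *Cd9* and *Trem2* therefore had fitted differences of opposite sign, and neither passed the threshold.

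*Spp1* encodes osteopontin, a secreted ligand of integrins and CD44, and lies on the plus strand of chromosome 5 (104435118 to 104441050). It was at 1019, 4086, 6636, and 6032 normalized CPM in the FCGR4+ libraries of mice 1 to 4 and at 607, 14023, 10734, and 2849.6 in the FCGR4- libraries. The highest library was thus 23.1-fold above the lowest, and both were FCGR4- libraries. FCGR4+ cells were higher in mice 1 and 4 and lower in mice 2 and 3. Its fitted log2 fold change was -0.15 (SE 0.469, 95% interval from -1.25 to 0.96, edgeR adjusted P = 0.926), and it was 0.38 without mouse 2 and 0.06 without mouse 3. *Spp1* alone made up from 4.04% to 52.02% of the summed CPM of the 10 genes. That sum was the larger in FCGR4+ cells for 2 of the 4 mice. Without *Spp1*, the sum of the other 9 was 14882, 20404, 13182, and 15471 in the FCGR4+ and 14423, 20799.6, 9899, and 12719.9 in the FCGR4- libraries of mice 1 to 4, larger in FCGR4+ cells for mice 1, 3, and 4.

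*Gpnmb* encodes a transmembrane glycoprotein of lysosomes and the cell surface and lies on the plus strand of chromosome 6 (49036546 to 49070929). It was at 1828, 5851, 981, and 1391 normalized CPM in the FCGR4+ libraries and at 1488, 6929, 719.7, and 1068 in the FCGR4- libraries. Mouse 2 stood far above the others in both populations. Fitted over the 4 mice, the log2 fold change was 0.22 (SE 0.154, 95% interval from -0.14 to 0.58, edgeR adjusted P = 0.648), higher in FCGR4+ cells in mice 1, 3, and 4. It was 0.13 without mouse 3 and 0.37 without mouse 2.

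*Lgals3* encodes galectin-3, a lectin that binds galactosides on the cell surface and on damaged endosomes, and lies on the plus strand of chromosome 14 (47367751 to 47386160). It was at 2557, 3902, 2846, and 3776 normalized CPM in the FCGR4+ libraries and at 3199, 4184, 2621, and 3208 in the FCGR4- libraries. The populations differed in opposite directions in mice 1 and 2 and in mice 3 and 4. The log2 fold change was -0.02 (SE 0.140, 95% interval from -0.35 to 0.31, edgeR adjusted P = 0.972).

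The populations overlapped for all 10 genes, as they did for all but 3.91% of the genes tested. Within mice, the log2 ratio of the populations (FCGR4+ over FCGR4-, prior count of 2) took both signs for 9 of the 10. Mouse 3 gave the highest ratio of *Trem2* (1.15), *Lpl* (1.15), *Fabp4* (1.58), and *Fabp5* (1.72), and the lowest ratio of *Cd9* (-1.37).

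**Figure D2:**
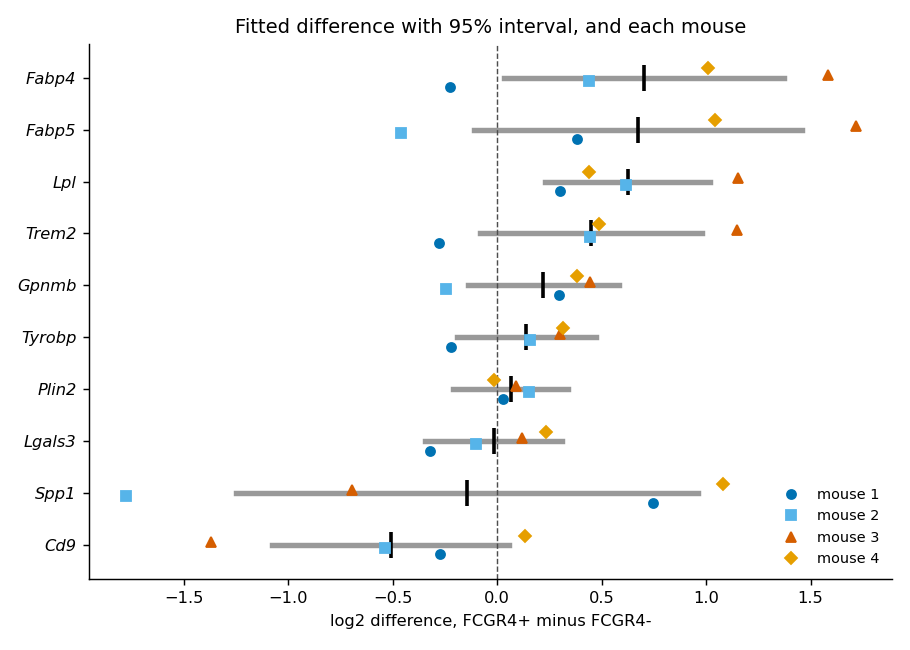
Fitted log2 difference of FCGR4+ minus FCGR4- for each of the 10 genes (black marks) with its 95% interval (gray bars), and the log2 ratio of each mouse (symbols). The intervals of *Lpl* and *Fabp4* lie above 0 before adjustment for the number of genes tested, and those of *Plin2*, *Lgals3*, and *Tyrobp* are narrow around 0.

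The same FCGR4- library of mouse 3 stood apart in some of the marker lists of cell types, but not in all. It held the lowest level of 5 of the 10 members (*Trem2*, *Gpnmb*, *Lpl*, *Fabp4*, and *Plin2*). Its summed level of 10 macrophage markers was 8299 normalized CPM, against 9128 to 12626 in the other FCGR4- libraries and 12380.2 to 14731 in the FCGR4+ libraries. Its fibroblast and preadipocyte markers summed to 1596 (396 to 920.1 in the other FCGR4- libraries) and its neutrophil markers to 2381 (379 to 647). Its mast cell and basophil markers had the lowest sum of the FCGR4- libraries, 196 (454 to 2083 in the others). Its B cell markers (492, against 407 to 2323) and T and NK cell markers (31.5, against 13.7 to 50.3) lay within the range of the others. The part of these cells in the ratios of mouse 3 was not tested. Without mouse 3, the number of members past the threshold was 0, and 163 genes in all passed it.

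The sign of the members' differences can be set beside that of the macrophage markers themselves. Of the 10 macrophage markers, 9 were higher in FCGR4+ libraries, with a median log2 fold change of 0.56 and a highest one of 0.68, and their sum was higher in 4 of 4 mice. The number that passed the threshold was 0 by edgeR's quasi-likelihood test, and 7 had an unadjusted P under 0.05 and 7 passed with DESeq2. The fold changes of *C1qb* (0.62, edgeR adjusted P = 0.297) and *C1qc* (0.62, adjusted P = 0.321), subunits of complement C1q, were of the size of that of *Lpl* (0.62). Among markers of other cells, those called were lower in FCGR4+ libraries, as were 203 of the 217 genes called in all. The markers called were 8 of 8 tested mast cell and basophil markers, 8 of 10 fibroblast and preadipocyte markers, 4 of 8 dendritic cell markers, 5 of 9 tested T and NK cell markers, 2 of 5 tested B cell markers, 5 of 7 neutrophil markers, 1 of 6 mesothelial markers, and 1 of 9 monocyte markers (*Vcan*). In FCGR4- libraries the sums reached at most 2083 normalized CPM for mast cell and basophil, 2381 for neutrophil, 2323 for B cell, 97.4 for dendritic cell, 50.3 for T and NK cell, and 38.9 for mesothelial markers. In FCGR4+ libraries they reached at most 24.4, 543, 333, 16.1, 9.28, and 8.34, and fibroblast and preadipocyte markers summed to between 156 and 290.4. The largest B cell sum, 2323, rested on 1 gene, which alone was at 2307 normalized CPM. The part of these cells in the differences of the members was not tested.

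Adipocytes also express *Fabp4*, *Lpl*, and *Plin2*. The 10 adipocyte markers together summed to 5.91 to 9.94 normalized CPM in the FCGR4+ and 6.83 to 12.8 in the FCGR4- population, with the lower sum in FCGR4+ cells in each of the 4 mice. *Cidec* (means of 2.599 ± 1.26 for FCGR4+ and 3.15 ± 0.562 for FCGR4- cells, normalized CPM, SD, n = 4) and *Lep*, the gene of leptin (1.87 ± 0.894 and 2.77 ± 1.94), had the highest mean CPM of them over all 8 libraries. Of the 7 that were tested, 0 passed the threshold by edgeR's quasi-likelihood test, 0 had an unadjusted P under 0.05, and 0 passed with DESeq2. The part of adipocyte RNA in the levels of these 3 members was not tested. The 10 endothelial markers, among them *Gpihbp1*, whose product anchors lipoprotein lipase to capillaries, summed to at most 22.02 normalized CPM in any library. Of the 9 tested, 0 passed the threshold by edgeR's quasi-likelihood test, 4 had an unadjusted P under 0.05, and 2 passed with DESeq2, both lower in FCGR4+ cells.

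**Figure D3:**
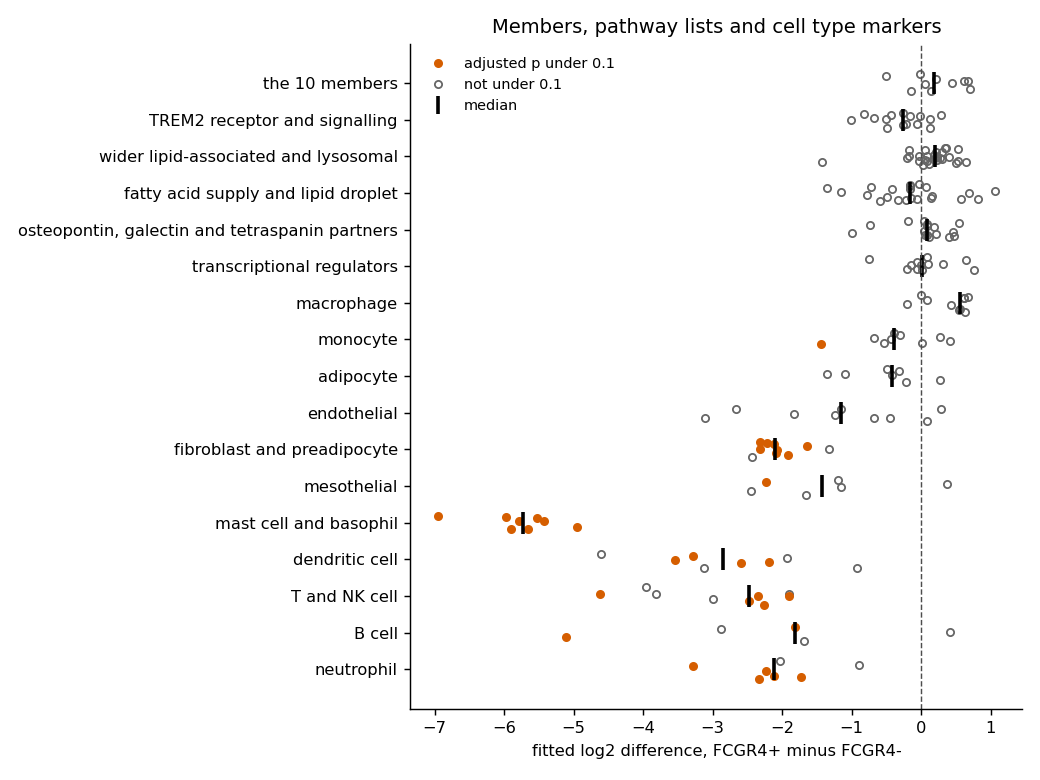
Fitted log2 difference of FCGR4+ minus FCGR4- for the 10 members and for each gene of the pathway lists and cell type marker lists that was tested, with filled points for an adjusted P under 0.1 by edgeR and black marks for medians. All points of the members, of the 5 pathway lists, and of the macrophage markers are open, and the filled points lie below 0 among markers of other cells.

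The levels of the members differed between mice. The mean log2 CPM of both populations was compared from mouse to mouse, and its differences are given as folds. From the lowest to the highest mouse it differed by 10.7-fold for *Spp1*, 7.58-fold for *Gpnmb*, 5.60-fold for *Fabp5*, and 2.49-fold for *Lpl*. For the other 6 it differed by at most 1.73-fold. The edgeR adjusted P of the mouse term was 0.00521 for *Gpnmb*, 0.0709 for *Lpl*, and 0.0896 for *Fabp5*, and it was 0.114 for *Spp1*. The highest mouse was not the same for these genes. By the mean log2 CPM it was mouse 2 for 7 of the 10, with *Gpnmb* and *Fabp5* among them, and mouse 1 for *Lpl* and *Fabp4*. It was mouse 3 for *Spp1*, whose highest single library came from mouse 2. In mouse 1, *Lpl* was at its highest in both populations while *Spp1* and *Fabp5* were at their lowest. Each mouse was 1 animal, and a difference between animals cannot be told apart from one in their handling. Monocyte markers also differed between animals, with sums of 379.7 to 653 normalized CPM in the 4 libraries of mice 1 and 2 and 2182 to 3031 in those of mice 3 and 4. Their part in the levels of the members was not tested.

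**Figure D4:**
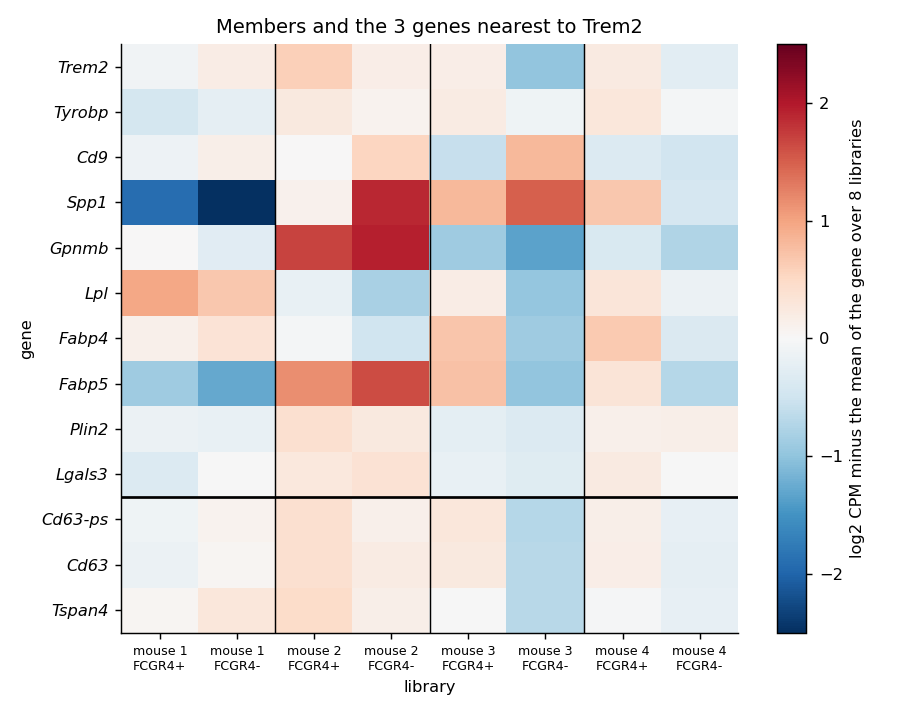
Log2 CPM of each gene minus its mean over the 8 libraries (color), with libraries grouped by mouse, for the 10 members (above the line) and the 3 genes nearest to *Trem2* (below it). *Gpnmb* is high in both libraries of mouse 2, *Lpl* in both of mouse 1, and *Spp1* is low in both of mouse 1, while *Trem2* and the genes nearest to it are lowest in the FCGR4- library of mouse 3.

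The genes whose pattern over the 8 libraries lay nearest to that of *Trem2* were sought among the 8087 other tested genes with a mean of at least 10 normalized CPM. Nearness was the root mean square difference of log2 CPM after the mean of each gene was taken off, and the 8 libraries come from only 4 mice. The 3 nearest were *Cd63-ps* (0.136), *Cd63* (0.141), and *Tspan4* (0.172), against a spread of *Trem2* itself of 0.44 on the same log2 scale. *Cd63* encodes a tetraspanin of late endosomes and lysosomes, and *Tspan4* encodes another tetraspanin. *Cd63-ps* has 46.9% of its sequence in *Cd63*, and its counts were between 10.6% and 11.5% of those of *Cd63* in every library, so it is not a separate observation. *Cd63* was at 985, 1434, 1287, and 1226 normalized CPM in the FCGR4+ libraries of mice 1 to 4 and at 1125, 1244, 672, and 924 in the FCGR4- libraries, with its lowest value in the same library as *Trem2*. Of the other 9 members, *Lgals3* was the nearest to *Trem2*, at rank 293, followed by *Plin2* at rank 336 and *Tyrobp* at rank 924. *Spp1* was at rank 7974.

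The other genes of the pathway were described from 5 lists, chosen with earlier results of these data known, and the number past the threshold by edgeR's quasi-likelihood test was 0 in each. Of 15 genes of the TREM2 receptor family and its signaling, 0 had an unadjusted P under 0.05 and 0 passed with DESeq2. In the fit over 4 mice, 12 were lower in FCGR4+ cells, and the median log2 fold change was -0.25. The direction was not shared by the mice. Their sum was higher in FCGR4+ cells in mice 1 and 2 (1224 against 962 and 1281 against 1224 normalized CPM). In mice 3 and 4 it was lower (926 against 1262 and 871 against 1083). The genes of this list with the highest mean CPM, a scale that favors long genes, were *Adam10*, the gene of a protease that sheds TREM2 from the surface (means of 245 ± 39.7 for FCGR4+ and 202 ± 50.6 for FCGR4- cells, normalized CPM, SD, n = 4, edgeR adjusted P = 0.585), and *Syk*, the kinase that docks on TYROBP (181 ± 73.0 and 199 ± 32.1, adjusted P = 0.676).

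Of 27 wider lipid-associated and lysosomal genes, 21 were higher in FCGR4+ cells, with a median of 0.20, 4 had an unadjusted P under 0.05, and 2 passed with DESeq2. These were *Ctss*, the gene of the protease cathepsin S (log2 fold change 0.65), and *Cst7*, the gene of cystatin F, an inhibitor of such proteases (-1.43), both named after their values were seen. Their levels were far apart. *Ctss* averaged 6660 normalized CPM over FCGR4+ and 4562 over FCGR4- libraries, and *Cst7* averaged 1.79 and 4.84. *Apoe*, the gene of apolipoprotein E, a ligand of TREM2, averaged 18495 ± 10902 and 14914 ± 8609 normalized CPM (SD, n = 4). All 4 mice had more of it in FCGR4+ cells, and the fitted difference was 0.31 on the log2 scale (SE 0.139, edgeR adjusted P = 0.531). *Ctsb*, the gene of cathepsin B, had a fitted log2 difference of 0.12 (edgeR adjusted P = 0.721). The mouse term passed the threshold for 13 of these 27 genes.

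Of the list of fatty acid supply and lipid droplet genes, 22 of 26 were tested, 15 were lower and 7 higher, the median was -0.16, 3 had an unadjusted P under 0.05, and 0 passed with DESeq2. *Hilpda*, the gene of an inhibitor of triglyceride lipase found on lipid droplets, had a log2 fold change of -0.22 (edgeR adjusted P = 0.678), and *Soat1*, the gene of an enzyme that esterifies cholesterol, of 0.16 (adjusted P = 0.738).

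Of 16 partners of osteopontin, galectins, and tetraspanins, 13 were higher with a median of 0.09, and 5 had an unadjusted P under 0.05. DESeq2 called *Itgav*, which encodes an integrin chain that binds osteopontin (log2 fold change 0.46), and *Lgals3bp*, which encodes a secreted ligand of galectin-3 (0.47), as higher and the tetraspanin gene *Cd82* (-0.74) as lower, named after their values were seen. The log2 fold change was 0.18 for *Cd53* (edgeR adjusted P = 0.699) and 0.08 for *Itgb1* (adjusted P = 0.839), the genes with the highest mean CPM. Of 12 transcriptional regulators, 7 were higher, the median was 0.01, 3 had an unadjusted P under 0.05, and DESeq2 called *Maf* and *Pparg*. *Maf* averaged 129.7 ± 41.6 normalized CPM over FCGR4+ and 73.7 ± 7.49 over FCGR4- libraries (SD, n = 4), higher in 4 of 4 mice, and its fitted log2 difference was 0.77 (adjusted P = 0.258 by edgeR and 0.0161 by DESeq2). *Pparg*, the gene of a nuclear receptor that has *Fabp4* among its known targets, was named after its values were seen and had a log2 fold change of 0.64 (edgeR adjusted P = 0.262).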

How the data were processed

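The authors aligned read pairs to mm10 with STAR and assigned them to GENCODE M18 genes with featureCounts 1.6.3, and the deposited values are raw counts without normalization. Per the file headers, a pair with several alignments added to each place, and strand was ignored. All per-sample columns entered (0 unused), and the deposited exon length gave levels per kilobase. Groups and mouse numbers came from the labels.

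A gene was tested where 4 or more of the 8 libraries had 10 counts or more, with edgeR 4.0.16 (R 4.3.3, TMM factors, quasi-likelihood test with default settings, mouse as a block, Benjamini-Hochberg adjustment over all tested genes, threshold 0.1). Same-numbered libraries come from 1 mouse. Their deviations from the population means correlated across genes at 0.428, 0.376, 0.291, and 0.295 in mice 1 to 4. The SE is the fitted log2 difference over the root of its F statistic. DESeq2, the test of the study's own methods, also with mouse in the model, was run here as an alternative (version 1.42.0). The fits were tested on simulated data. Sequence shared with other genes was sought in the mm10 transcripts of the reference annotation, in words of 50 bases.

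The 10 members, the gene and marker lists, and the tests were chosen with earlier results of these data known. Named besides the members are *Fcgr4*, the 2 genes of each list with the highest mean CPM and any of it past the threshold (3 in each direction where over 6 passed), a gene holding at least 10% of a member's sequence, and the 3 genes nearest to *Trem2*. A gene that this rule names is not reported here. The mouse term and the interaction of population and ID prefix were added after the data had been seen.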

Additional observations from a re-analysis of the deposited data

Results flagged for a closer look

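In 30 groups of 4 values (each member's levels in each population and its per-mouse ratios), a value far from the other 3 was sought by the share of the whole range taken by its gap to the nearest other value. In 3 groups it exceeded the 95% critical value of Dixon's test, where chance gives about 1.5. The share was 0.861 for *Tyrobp* in FCGR4+ libraries, where mouse 1 was low (1226 normalized CPM against 1904 to 2014 in the others). It was 0.876 for *Gpnmb* in FCGR4- libraries, where mouse 2 was high (6929 against 719.7 to 1488). It was 0.927 for *Fabp5* in FCGR4- libraries, where mouse 2 was high (1722 against 229 to 338).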

How the results depend on the processing

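The number of the 10 members past the threshold was 0 in the paired edgeR fit and in 11 of 13 other fits, including every fit with a mouse left out. It was 1 with DESeq2 and 3 with no filter on low counts. The number of genes past the threshold, 217, was 48 with no replicate block (libraries treated as unpaired), 1024 with DESeq2, 629 with edgeR's newer quasi-likelihood method, 1054 with no filter on low counts, 113 with mice 1 and 2 alone, 113 with mice 3 and 4 alone, and 76 at a threshold of 0.05. Leaving out each mouse gave from 84 (without mouse 1) to 163, with 127 without mouse 2 and 91 without mouse 4.

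Of 130 fold changes of members in these other fits, 11 changed sign. On the log2 scale these were *Tyrobp* (-0.032) and *Fabp5* (-0.040) with mice 1 and 2 alone, *Gpnmb* (-0.022) with no replicate block, *Plin2* (-0.025) with library size alone (where the median over all genes was -0.092), *Spp1* (0.17) and *Lgals3* (0.15) with mice 3 and 4 alone, and *Lgals3* (0.0020) with no filter. With each mouse left out, *Spp1* ranged from -0.58 to 0.38, above 0 without mouse 2 and without mouse 3, and *Lgals3* from -0.10 to 0.084, above 0 without mouse 1 and without mouse 2. No member's call changed with no replicate block. With no filter the median over all genes was -0.16. The cause of these changes was not tested. With 4 mice, a difference of *Spp1* anywhere from 0.421-fold to 1.94-fold lies within its 95% interval.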
